A study of Mus musculus with 7 samples.

Results

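The regions described here had an ATAC-seq peak in both libraries of embryonic face ectoderm and in none of 5 postnatal tooth libraries. ATAC-seq maps open chromatin, the stretches of DNA that a transposase can reach because nucleosomes do not cover them. The 38000 most significant peaks on chromosomes 1 to 19 were taken from each library, peaks that shared at least 1 bp were merged, and the merged regions were sorted by the libraries that had a peak in them. Of 77136 merged regions, 9896 were open in ectoderm alone (12.8%), and they are called ectoderm-only regions below. Presence or absence of a peak chose these regions, so their absence from the postnatal lists is a definition and not a result. Most of them lay far from genes' ends, and a minority had a peak in a molar library that ranked below the 38000 used. Meis2 had the most ectoderm-only regions of any gene (15), followed by Lmx1b and Igf1r (10 each) and by Plekha7, Ephb2 and Nfib (9 each). Among genes listed for ectoderm and epithelium, Grhl3 had 6, and Tfap2a, Trp63, Pitx1 and Pdgfa had 5 each.

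The ectoderm came from the first pharyngeal arches of mouse embryos at embryonic day 11.5 (E11.5) and was peeled off the mesenchyme after treatment with Dispase II (2 libraries). The postnatal libraries were all from postnatal day 2 (P2). They were Sox2-positive cells sorted by flow cytometry from the dissociated labial cervical loop of lower incisors of a Sox2-GFP line, whose GFP is driven by the endogenous Sox2 promoter (2 libraries), and whole lower incisor, whole lower first molar and whole upper first molar (1 library each, with no replicate). The labels name no other allele or treatment, and give neither the strain nor the number of animals per library, nor whether the replicates came from separate litters. Stage and tissue differ together between the ectoderm and every P2 library, so an effect of age cannot be told apart from one of tissue. Of 22 cranial mesenchyme genes, 7 and 10 had a gene-end peak in the ectoderm libraries, 13 and 17 in the Sox2-positive libraries, 16 in incisor and 10 in each molar, where over all genes the libraries ranged from 52.6% to 58.3%. The gene end was called in the pair of Sox2-positive libraries but in no ectoderm library at 6 of the 22, Twist2 and Pdgfra among them, and the reverse held at 2, Prrx1 and Lhx6. Of 27 genes of epithelial structure, 21 and 20 had one in ectoderm, 18 and 20 in the Sox2-positive libraries, 13 in incisor, 16 in lower molar and 15 in upper molar. With both Sox2-positive libraries set aside, 11401 regions were open in ectoderm alone.

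The first pharyngeal arch forms the jaws, and its ectoderm covers the face, lines the front of the mouth and gives rise to the epithelium of teeth. In such ectoderm, transcription factors of the AP-2, p63 and Grainyhead-like families set up the epithelial state, and ligands of the FGF, BMP, WNT, hedgehog and endothelin families signal to the mesenchyme below. Open chromatin away from promoters is typical of enhancers, which differ more between cell types than promoters do. An open region is not by itself an active enhancer, and no expression was measured here.

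Promoters were the exception among the ectoderm-only regions, and the following 5 are shown because they belong to genes on the lists of ectoderm and epithelial genes and lay under an ectoderm-only region. They are the claudins Cldn3, Cldn7 and Cldn6, which seal tight junctions between epithelial cells, Wnt3, a WNT ligand of the facial ectoderm, and Edn1, the endothelin that patterns the lower jaw. Each sequence is the 250 bases before the RefSeq start site (GRCm38.p6), 5′ to 3′ on the gene's strand, and all 5 are on the + strand. Capitals mark matches on either strand to the motifs of AP-2 (GCCNNNGGC), GRHL (AACCNGTT), AP-1 (TGANTCA), KLF/SP (GGGCGG), TCF/LEF (ATCAAAG), PITX (GGATTA) or the p53/p63 family.
Cldn3 (chr5:134985964-134986213): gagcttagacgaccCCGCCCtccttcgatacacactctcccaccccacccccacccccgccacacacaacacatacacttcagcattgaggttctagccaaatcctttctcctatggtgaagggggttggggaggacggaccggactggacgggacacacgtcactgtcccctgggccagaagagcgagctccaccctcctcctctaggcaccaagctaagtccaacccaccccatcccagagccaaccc
Cldn7 (chr11:69964529-69964778): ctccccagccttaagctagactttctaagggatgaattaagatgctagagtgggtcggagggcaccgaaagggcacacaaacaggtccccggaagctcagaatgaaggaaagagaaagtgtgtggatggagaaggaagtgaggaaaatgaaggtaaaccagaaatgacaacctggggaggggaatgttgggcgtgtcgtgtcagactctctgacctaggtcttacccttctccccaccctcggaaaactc
Wnt3 (chr11:103773925-103774174): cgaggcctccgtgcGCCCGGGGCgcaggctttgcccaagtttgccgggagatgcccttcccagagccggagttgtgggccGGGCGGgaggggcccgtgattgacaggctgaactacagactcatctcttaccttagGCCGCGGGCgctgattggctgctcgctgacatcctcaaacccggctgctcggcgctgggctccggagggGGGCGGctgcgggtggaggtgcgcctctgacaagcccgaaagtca
Cldn6 (chr17:23679115-23679364): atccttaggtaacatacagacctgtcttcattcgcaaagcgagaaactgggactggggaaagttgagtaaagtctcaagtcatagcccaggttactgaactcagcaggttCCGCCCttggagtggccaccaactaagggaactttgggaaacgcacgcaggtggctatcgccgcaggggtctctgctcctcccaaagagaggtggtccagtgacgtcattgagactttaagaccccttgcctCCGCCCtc
Edn1 (chr13:42301226-42301475): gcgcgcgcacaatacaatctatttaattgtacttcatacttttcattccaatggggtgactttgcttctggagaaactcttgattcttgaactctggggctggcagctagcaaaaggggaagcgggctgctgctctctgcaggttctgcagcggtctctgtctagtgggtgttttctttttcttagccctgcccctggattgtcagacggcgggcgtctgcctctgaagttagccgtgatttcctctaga
The Wnt3 stretch held 2 AP-2 and 2 KLF/SP matches, Cldn6 held 2 and Cldn3 held 1 KLF/SP match, and none of the 7 motifs matched in Cldn7 or Edn1. A match describes the letters and is not evidence that a factor binds. The peak over the Cldn3 promoter had a −log10 p, the significance the authors deposited, of 7.65 in ectoderm library 1 and 6.89 in library 2, and no P2 library had a peak there at any rank. Cldn7 had 7.34 and 5.99 with no P2 peak, and Cldn6 had 6.08 and 5.51 with no P2 peak. The Cldn7 region starts at chr11:69964691, so most of the Cldn7 stretch shown lies before it. Wnt3 had 6.97 and 6.84, and 1 full P2 list had a peak there. Edn1 had 5.37 and 4.58, and 3 full P2 lists had a peak. The claudin promoters were thus open in ectoderm with no peak in any P2 list, while the Edn1 promoter also had weaker P2 peaks.

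The ectoderm-only regions were of middling strength within the ectoderm lists. Their median rank was 22900 of 38000 in library 1 and 24500 in library 2, against 9340 and 8330 for the 14786 regions open in all 7 libraries. Median peak signal, the area under the authors' significance curve, was 1170 (343 to 6920) in library 1 and 638 (201 to 6340) in library 2. The ranks in the 2 ectoderm libraries had a Spearman rho of 0.702 over the 9896 regions, which were chosen for being in both lists. Median width was 692 bp (182 to 3739), below the 846 bp of the P2-only regions and the 1420 bp of the regions in all 7, and the ectoderm-only regions covered 7.39 Mb in all. P2-only regions, open in all 5 P2 libraries and in neither ectoderm library, numbered 4853 (6.29% of merged regions) and serve as the mirror set below. Of 32278 regions that both ectoderm libraries shared, 30.7% were ectoderm-only, and of 20304 that the 5 P2 libraries shared, 23.9% were P2-only. These 2 counts come from 2 and 5 libraries and are given side by side only.

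The limit separated regions of nearly equal value. The last member by rank, in Kat6b, stood at rank 38000 in ectoderm library 1 with a −log10 p of 4.79 and signal 627. A region 21.2 kb from Slc39a12 stood at rank 38001 in that library with the same −log10 p of 4.79 and signal 626, and was left out although library 2 ranked it 36477. In library 2 the member at rank 37993, in Cpe, had a −log10 p of 3.82 and signal 349, and a region 768 kb from Auts2 at rank 38001 had 3.82 and signal 346.

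The 15 ectoderm-only regions with the best rank in the weaker of the 2 ectoderm libraries lay outside promoters. Of these 9 were inside a gene and 6 between genes, at 15.6 to 794 kb from the nearest gene end. The first, chr14:105684338-105685603, lay between Ndfip2 and Spry2, 207 kb from the end of Spry2, a feedback inhibitor of FGF signalling. It had a −log10 p of 10.6 in ectoderm library 1 and 8.79 in library 2, signals of 4260 and 3590, and no peak in any P2 list. The second, chr17:71980204-71981709, lay inside Alk, a receptor tyrosine kinase, with a −log10 p of 9.49 and 8.78, and had peaks of 3.32 in lower molar and 3.82 in upper molar below the limit. A region inside Erbb4, a neuregulin receptor, at chr1:68046872-68048095 had 9.89 and 8.04 and lay 134 kb from the nearest P2 peak of any rank. The region inside Itga9, an integrin subunit, at chr9:118820979-118822541 had 8.94 and 8.35, with P2 peaks of 3.26 in incisor, 4.07 in lower molar and 3.93 in upper molar.

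**Figure D1:**
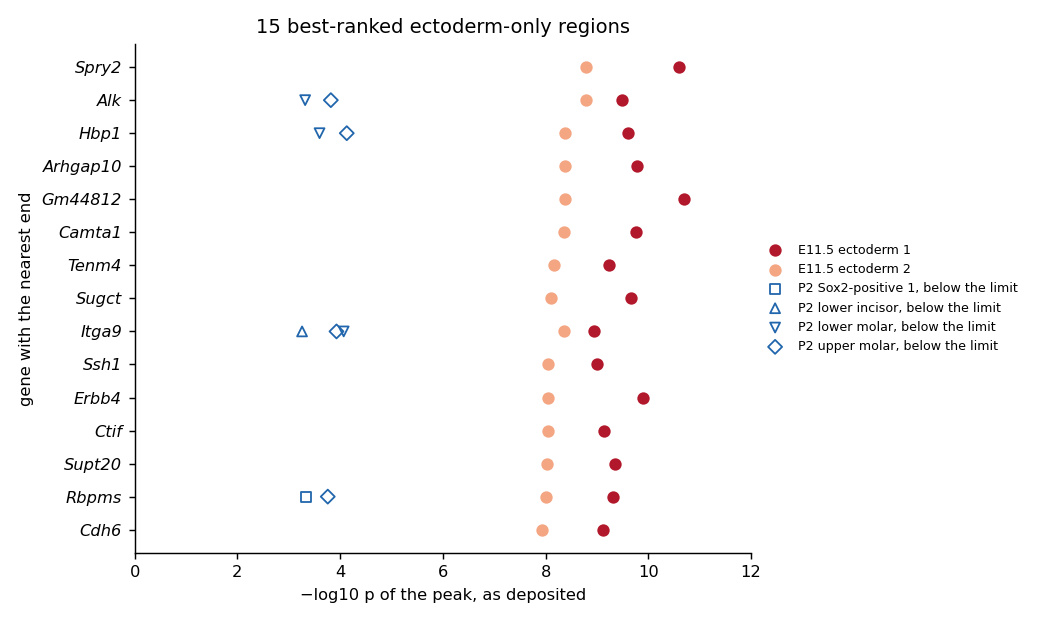
Significance (−log10 p, as deposited, x axis) of the 15 best-ranked ectoderm-only regions, each named by the gene with the nearest end (y axis), with filled points for the 2 ectoderm libraries and open symbols for P2 peaks below the 38000-peak limit. Ectoderm values run from 8.94 to 10.7 in library 1 and from 7.93 to 8.79 in library 2, and the 4 regions with P2 peaks have values from 3.26 to 4.13 there.

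Ectoderm library 1 had the higher −log10 p for all 15 of these regions, and its whole list was the longer one. In all, 11 of the 15 had no peak in any full P2 list. The regions not described above, in Cog5, Arhgap10, Camta1, Sugct, Ssh1 and Ctif and beside Gm44812, Tenm4, Supt20, Rbpms and Cdh6, had values from 9 to 10.7 in library 1 and from 7.93 to 8.37 in library 2. Scales of significance are not shared between libraries, so these values rank peaks within a list and measure no change between libraries.

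A library that had no part in the choice gave a check of the regions. With ectoderm library 2 set aside, 13863 regions had a peak in library 1 and in no P2 library, and library 2 had a peak among its own 38000 in 10045 of them (72.5%, Wilson 95% interval 71.7 to 73.2) and in its full list in 89.2%. With library 1 set aside, 10155 of 13341 regions (76.1%, 75.4 to 76.8) were found among its 38000 peaks and 98.5% in its full list, which was the longer of the lists. Regions shared with all 5 P2 libraries were found in the set-aside ectoderm library in 98.3% and 97.3% of cases. The held-out replicate therefore missed more of the ectoderm-only regions than of the shared ones, and the former were the weaker peaks. These intervals, like the others given for shares, cover the counting of regions only, and read depth is unknown because peak lists hold no read counts.

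Setting aside a P2 library in the same way showed how often a tooth library that had no part in the choice had such a region. Among its 38000 peaks, Sox2-positive library 1 had 7.81% of the regions chosen without it, library 2 had 2.53%, incisor 1.82%, lower molar 2.64% and upper molar 4.09%. The same libraries had between 95.3% and 99.0% of the regions shared by both ectoderm libraries and the other 4 P2 libraries. The order differed in the full lists, where Sox2-positive library 1 had 9.92%, library 2 2.73%, incisor 9.41%, lower molar 23.4% and upper molar 25.6%.

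Below the rank limit, 2952 of the 9896 ectoderm-only regions (29.8%, 28.9 to 30.7) had a peak in at least 1 full P2 list, and 6944 (70.2%) had none. With a limit of 20000 peaks per list, 4511 regions were ectoderm-only and 60.6% of them had a peak in a full P2 list. In these bulk libraries, fewer cells with an open region and less opening in each cell cannot be told apart. The molars accounted for most of these peaks, which were weaker only in ranking below the limit of their own list. The limit fell at a −log10 p of 4.28 in lower molar, 4.27 in upper molar and 4.01 in incisor. It fell at 3.33 and 2.94 in the Sox2-positive libraries, and at 4.79 and 3.82 in ectoderm libraries 1 and 2. A peak was found in the full list of the upper molar for 2216 regions (22.4%), of the lower molar for 2111 (21.3%), of the incisor for 765 (7.73%), of Sox2-positive library 1 for 227 (2.29%) and of Sox2-positive library 2 for 20 (0.202%). Either molar had 27.5% and both molars 16.3%, and 20.4% had a peak in a molar but in neither the incisor nor a Sox2-positive library, against 1.56% in the incisor alone. List length limits these shares, since 30877 lower molar, 29193 upper molar and 24074 incisor peaks lay below the limit but only 3829 and 326 in the Sox2-positive libraries. Per list, ectoderm-only regions made up 7.59% of the upper molar peaks below the limit, 6.84% of the lower molar, 3.18% of the incisor, 5.93% of Sox2-positive library 1 and 6.13% of library 2. Incisor and molar lists were close in length, and the incisor had the lowest share of the 3 whole teeth on both counts. With 1 library of each whole tooth, a difference between teeth has no replicate check.

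**Figure D2:**
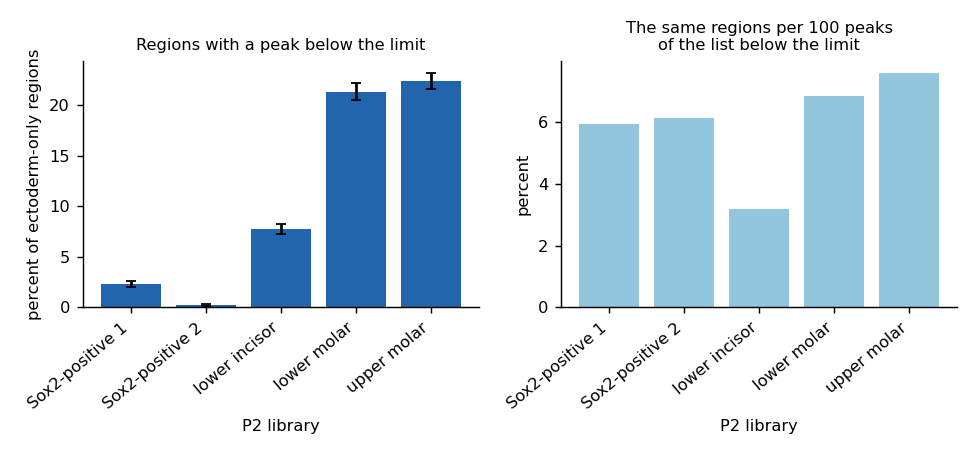
Left, percent of the 9896 ectoderm-only regions (y axis) with a peak below the 38000-peak limit in the full list of each P2 library (x axis), with Wilson 95% intervals as bars. Right, the same regions as a percent of all peaks of that list below the limit; the molars have 22.4% and 21.3% on the left, and the incisor the lowest value, 3.18%, on the right.

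The shares did not follow the strength of the ectoderm peak. In 4 equal groups of the regions by the worse of the 2 ectoderm ranks, from strongest to weakest, 31.5%, 29.0%, 28.7% and 30.1% had a peak in a full P2 list. Regions within 1 kb of a gene end had a full-list P2 peak in 50.6% of 722 cases, and the rest in 28.2%, a difference of 22.4 percentage points (Newcombe 95% interval 18.6 to 26.1).

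Ectoderm-only regions were mostly distal. Their centre lay within 1 kb of an end of a protein-coding gene in 722 cases (7.30%, 6.80 to 7.83), inside a gene but away from its ends in 4754 (48.0%) and between genes in 4420 (44.7%). Of all of them 69.3% lay over 10 kb and 21.6% over 100 kb from any gene end. Regions in all 7 libraries were near a gene end in 58.6% of cases, and the difference from them was −51.3 points (−52.2 to −50.4). P2-only regions were near a gene end in 3.42%, so that the ectoderm-only regions stood 3.88 points higher (3.14 to 4.59) on a low level. The difference had this sign on 19 of 19 chromosomes, and was 1.31 points with ectoderm library 2 left out and 1.57 points with 200 bp windows around summits. Inside gene bodies the order turned, with 48.0% against 53.8% (difference −5.76 points, −7.47 to −4.05). Counting RefSeq start sites in place of both gene ends gave 7.27% and 4.35%. Gene ends were used because the gene table gives no strand, and exons and introns were not told apart. Across chromosomes the ectoderm-only share of merged regions ran from 10.9% on chromosome 11 to 14.6% on chromosome 12.

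**Figure D3:**
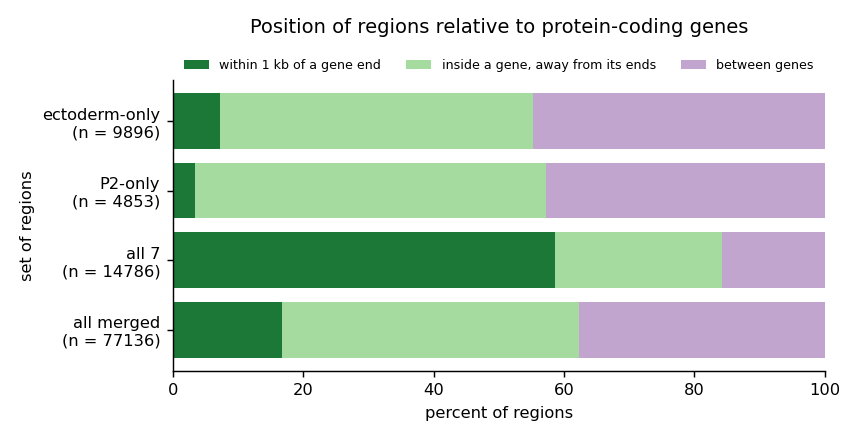
Percent of regions (x axis) within 1 kb of a protein-coding gene end, inside a gene away from its ends, or between genes, for ectoderm-only regions, P2-only regions, regions in all 7 libraries and all merged regions (y axis). Ectoderm-only and P2-only regions have 7.30% and 3.42% near gene ends, and the regions in all 7 libraries 58.6%.

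The gap between these regions and the nearest tooth peak varied widely. The median gap from an ectoderm-only region to the nearest peak of the P2 lists used was 10 kb. A P2 peak lay within 1 kb of 886 of them (8.95%), and 668 (6.75%) were over 100 kb from any. The farthest was 3060 kb away. No such gap is given for other regions, so these values do not show whether ectoderm-only regions lay unusually near tooth peaks.

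Near gene ends, the best-ranked ectoderm-only region lay at Tbx20, a T-box factor of the heart and of cranial motor neurons, with a −log10 p of 8.23 in ectoderm library 1 and 7.32 in library 2 and a lower molar peak of 3.60 below the limit. Oprk1, the kappa opioid receptor gene, had 7.83 and 7.12 with no P2 peak closer than 326 kb. The homeobox gene Emx1 had 7.80 and 6.61, and the doublesex-related factor gene Dmrta2 had 8.25 and 6.61, each with a peak below the limit in at least 1 molar. The end of Meis2 had 7.56 and 6.78, with peaks of 3.68 in incisor and 3.98 in lower molar that ranked below the limit.

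Each region was assigned to the protein-coding gene with the nearest end within 100 kb. In this way 7756 ectoderm-only regions (78.4%) fell to 5088 of 20665 genes (24.6%), and 2140 had no gene end within 100 kb. Exactly 1 region fell to 3410 of these genes, 2 to 1069 and at least 3 to 609, and the 86 genes with at least 5 held 504 regions. The P2-only regions fell to 2875 genes (13.9%). Both kinds were found at 1355 genes, which are 26.6% of the genes with an ectoderm-only region and 47.1% of those with a P2-only region. Of the 64993 merged regions assigned to a gene, 11.9% were ectoderm-only and 6.20% were P2-only. Nearness assigns a region by position and does not show which gene it controls.

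The homeobox gene Meis2, whose protein is a partner of Hox and Pbx factors and is known in palate and jaw development, had the most of any gene, 15 ectoderm-only regions among its 24. Of these 8 lay inside the gene and 7 outside it, the latter up to 36.3 kb from an end, 3 had a peak in a full P2 list, and 2 P2-only regions were assigned to it. The best-ranked, chr2:116103479-116104249, was 36.3 kb outside the gene and had a −log10 p of 8.83 in ectoderm library 1 and 6.75 in library 2, with no P2 peak. The neighbouring chr2:116095893-116096467 had 8.54 and 6.71, again with no P2 peak. A LIM homeobox gene, Lmx1b, had 10 of 21 and no P2-only region. Its best, chr2:33594599-33595806, lay inside the gene with 8.02 and 6.95 and no P2 peak. Lmx1b also held 10 of the 13 regions in the 500 kb window with the most of them, chr2:33500001-34000000, where the median window with a merged region had 2.00. Other dense windows were led by Plekha7 on chromosome 7 (9 of 12 regions) and by Creg2 and Map4k4 on chromosome 1 (5 and 4 of 12).

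**Figure D4:**
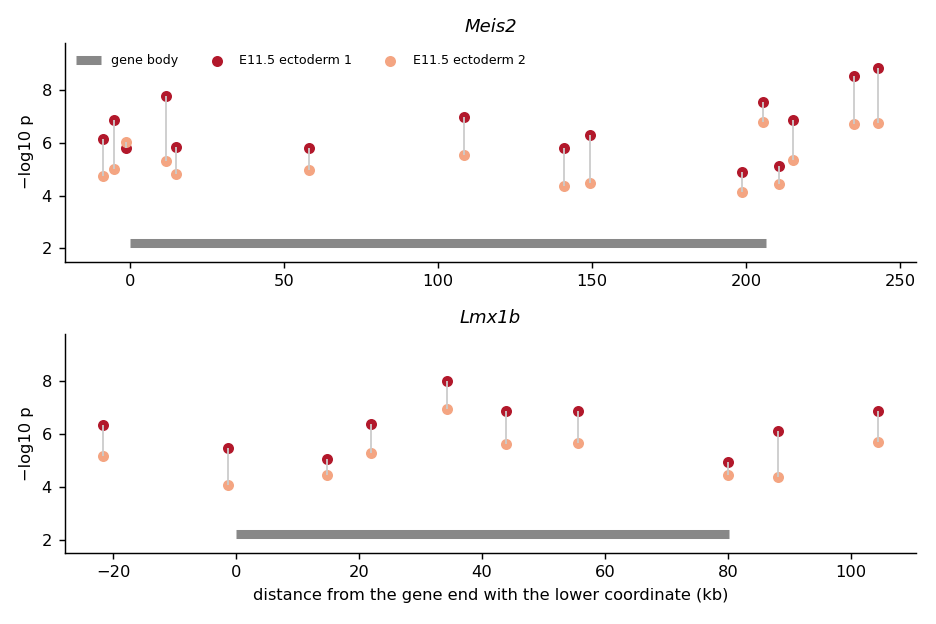
Significance (−log10 p, y axis) in each ectoderm library of the 15 ectoderm-only regions assigned to Meis2 and the 10 assigned to Lmx1b, by distance in kb from the gene end with the lower coordinate (x axis), with the gene body as a grey bar. The regions spread through and beyond both genes, and a grey line joins the 2 values of a region.

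Igf1r, the receptor of insulin-like growth factors, had 10 of 26 regions, all inside the gene, and 4 of the 10 had a peak in a full P2 list. Plekha7, a protein of the adherens junction, had 9 of 21 with none in any full P2 list. Ephb2, an ephrin receptor, had 9 of 22, and the ephrin gene Efna5 had 7 of 23. Nfib, a factor of the nuclear factor I family, had 9 of 29. Gli3, the main repressor of hedgehog target genes, had 8 of 30 with 3 P2-only regions, and Tcf7l1, a repressor of WNT targets, had 7 of 26 with 2. Arhgap18 (7 of 12), Ikzf2 (7 of 13), Grhl3 and Myo5b (6 of 11 each) and Frmpd1 (6 of 12) had 50% or more of their regions in ectoderm alone and no P2-only region. The 20 genes with most such regions held 161 of them, 116 inside the gene and 45 outside, beside 27 P2-only regions, and 7 of the 20 had no P2-only region. Some 38 of the 161 (23.6%) had a peak in a full P2 list. Hunk, Sh3rf1, Myo10, Vps8, Dok5 and Tenm4 completed the 20, with 7 or 8 each.

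Genes were also read as lists. For each list the text gives how many genes had an ectoderm-only region, against 24.6% of all genes, and what share of the regions assigned to the list was ectoderm-only, against 11.9% over all genes. Outside the blood and Hox lists, listed genes drew more regions than the average gene, for example 9 per facial ectoderm transcription factor against 3.15 per gene, so the second share is the one to compare. No test was made of any list. Of the 21 lists, 12 had an ectoderm-only share above 11.9%.

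Transcription factors of the facial ectoderm had an ectoderm-only region at 13 of 20 genes (65.0%), 28 of 180 regions (15.6%), with P2-only regions at 4.44% against 6.20% over all genes. Tfap2a, the AP-2 alpha factor needed for the face, had 5 of its 14 regions and no P2-only region. The best, chr13:40738640-40740234, lay 1.20 kb from its end with a −log10 p of 6.62 and 5.24 and no P2 peak. A peak among the 38000 lay within 1 kb of an end of Tfap2a in both ectoderm libraries and in no P2 library, and the same was true of Tfap2b. Trp63, the p63 gene that keeps stratified epithelium, had 5 of 23, all inside the gene, and 3 of the 5 had a peak in a full P2 list. Its best, chr16:25833048-25834269, had 7.45 and 6.05 with no P2 peak. Pitx1, a homeobox gene of the lower jaw, had 5 of 16, and its best, chr13:55892836-55893916, had 6.43 and 5.51 with peaks in 2 full P2 lists. Msx2, a homeobox gene of ectoderm and mesenchyme, had 3 of 12.

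Signalling ligands of the facial ectoderm had the highest share of genes with such a region among the lists, 17 of 19 (89.5%), with 33 of 166 regions (19.9%). Pdgfa, a ligand for the mesenchyme's PDGF receptor, had 5 of 11, none of which had a peak in any P2 list. Its best, chr5:138910966-138912028, had a −log10 p of 6.03 and 5.04. Edn1 had 3 of 5, Fgf20 2 of 3, Wnt3 2 of 3 and Wnt9b 2 of 5, none with a P2-only region. Wnt6 had 3 of 10, with 7.39 and 6.28 at its best region, chr1:74780316-74781624, which also had a peak in 2 full P2 lists. Bmp4, the ligand that patterns the distal jaw and the tooth germ, had 3 of 11 beside 2 P2-only regions, and Shh 1 of 7. Bmp7 and Wnt7b each had 1 ectoderm-only region and 3 P2-only regions. Wnt10a and Wnt10b had none.

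Regulators of epithelium had an ectoderm-only region at 8 of 14 genes (57.1%), 23 of 138 regions (16.7%). Grhl3, a Grainyhead-like factor of the epidermal barrier, had 6 of 11, and its best, chr4:135547213-135548962, had a −log10 p of 8.11 and 6.11 with no P2 peak. Klf5 had 4 of 7, Irx4 4 of 11, the epithelial splicing factor Esrp1 3 of 5 and Elf3 2 of 4, and none of these genes had a P2-only region. The P2-only share of the list was 5.07%. Runx1 had 1 ectoderm-only and 6 P2-only regions of 40, and Grhl2 had 2 and 1 of 19. Grhl1, Ovol1, Ovol2, Esrp2, Ehf and Klf4 had no ectoderm-only region. Genes of epithelial structure had one at 15 of 27 (55.6%), 24 of 155 regions (15.5%). Cldn3 and Cldn7 had every one of their 2 regions each in ectoderm alone, Dsp, the desmoplakin of desmosomes, had 3 of 10, Epcam 2 of 8 and the E-cadherin gene Cdh1 2 of 14. The end of Krt14, a keratin of basal stratified epithelium, had a peak in all 5 P2 libraries and in neither ectoderm library.

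Receptors and feedback genes of the same pathways lay nearer the value of all genes. For FGF receptors and feedback, 13 of 142 regions (9.15%) were ectoderm-only and 11.3% P2-only, with Fgfr2 at 4 of each kind. WNT receptors and feedback had 11.0% and 10.1%, with Lgr5, a stem cell marker, at 3 of 5 and Tcf7l1 at 7 of 26. The BMP and activin pathway had 10.4% and the retinoid and nuclear receptor list 9.43%. The hedgehog list had 13.6%, led by Gli3, Gli2 (5 of 37) and Hhip, the hedgehog-binding antagonist (4 of 10). Meis, Pbx and other factors of the TALE class had regions at 6 of 15 genes (40%) but 29 of 138 regions (21%), of which Meis2 alone gave 15 and Meis1 4. Their P2-only share was 9.42%, above that of all genes.

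Cranial placode and sensory genes had 8 of 14 (57.1%) and 13 of 69 regions (18.8%), beside a single P2-only region (1.45%). Pax2, a factor of otic and epibranchial placodes, had 3 of 6 with no peak in any P2 list, and its best, chr19:44824751-44826202, had a −log10 p of 6.71 and 5.12. Pax6, Six4 and Eya1 had 2 each. Genes of the embryonic stage, such as the let-7 targets Igf2bp1 (2 of 6) and Trim71 (3 of 7), had 8 of 15 (53.3%) and 14 of 97 regions (14.4%). Hmga2, on the same list, had 2 of 23 beside 1 P2-only region. Lin28a, Hmga1, Mycn, Dnmt3b, Sall1, Sall2 and Sall3 had no ectoderm-only region. Hox genes, which the first arch is known not to express in its mesenchyme, had few regions, 6 of 17 (35.3%), and no P2-only region. Hoxd1 had a gene-end peak in both ectoderm libraries and in no P2 library, with a −log10 p of 4.79 and 4.20.

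**Figure D5:**
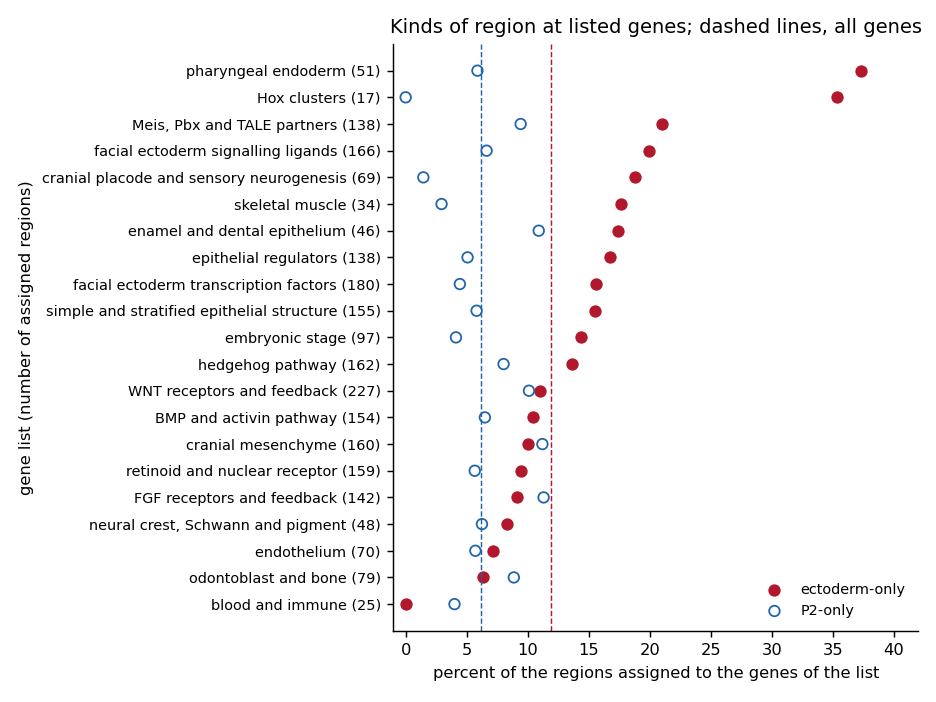
Percent of all regions assigned to the genes of each list (x axis) that are ectoderm-only (filled) or P2-only (open), for 21 gene lists (y axis, with the number of assigned regions); dashed lines give the values over all genes, 11.9% and 6.20%. Lists of pharyngeal endoderm (37.3%) and Hox genes (35.3%) lie farthest right, on 51 and 17 regions, and blood and immune genes lie at 0.

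Markers of other tissues that a dissected arch could hold were read the same way. Pharyngeal endoderm had the highest share of all lists, with a region at 8 of 12 genes (66.7%) and 19 of 51 regions (37.3%). Foxa1 and Foxa2, forkhead factors of endoderm, had 4 of 5 each and no P2-only region. The best region of Foxa1, chr12:57623332-57624611, had a −log10 p of 8.71 in ectoderm library 1 and 7.26 in library 2 and no P2 peak. Pax9 had 4 of 10, and Gata3 and Nkx2-1 had 2 each, genes that other tissues express as well. Gene ends with a peak among the 38000 numbered 5 and 4 of 12 in the ectoderm libraries and 1 to 3 in the P2 libraries. The ends of Foxa2 and Foxe1 had a peak in both ectoderm libraries and in no P2 library, and those of Foxa1, Pax9, Nkx2-1 and Sox17 had none in any library. The part of endoderm in the ectoderm-only regions was not tested.

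Of the 22 cranial mesenchyme genes, 12 (54.5%) had an ectoderm-only region, against 24.6% of all genes. These were 16 of the 160 regions at the list (10%), against 11.9% over all genes, and 11.2% were P2-only, against 6.20% over all genes. Prrx1, a homeobox gene of mesenchyme, had a gene-end peak in both ectoderm libraries alone. Blood and immune genes had 0 of 25 regions, endothelium 5 of 70 (7.14%), neural crest, Schwann and pigment genes 4 of 48 (8.33%) and odontoblast and bone genes 5 of 79 (6.33%). Skeletal muscle genes had 6 of 34 (17.6%) and enamel and dental epithelium genes 8 of 46 (17.4%). For the ectoderm label, 16 and 18 of the 20 facial ectoderm transcription factor genes had a gene-end peak in the 2 ectoderm libraries, against 14 in each Sox2-positive library, 12 in incisor, 14 in lower molar and 13 in upper molar. Epithelial regulators did not differ in this way, with 10 and 11 of 14 in ectoderm and 11 and 10 in the Sox2-positive libraries. They had 7 in incisor, 11 in lower molar and 10 in upper molar. Facial ectoderm ligands had 52.6% and 57.9% in the ectoderm libraries, against 56.6% and 58.3% over all genes there, and 36.8% to 42.1% in the P2 libraries. Trp63, a regulator of stratified epithelium, had none in any library, and the keratin gene Krt14 had one in every P2 library and in neither ectoderm library. The part of mesenchymal cells in the absence of ectoderm-only regions from the P2 libraries was not tested.

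Few genes had ectoderm-only regions and nothing else. Of 8053 genes with at least 3 assigned regions, 8 had every one in ectoderm alone, and these are named after their values were seen. They were Lrp2, the endocytic receptor megalin (5 regions), Erbb4 (4), and Car14, Gpr12, Otog, Pcdh15, Phactr1 and Zpld1 (3 each). Otog, Pcdh15 and Zpld1 are known for the inner ear, as parts of its acellular membranes and of hair cells. Genes with the most of both kinds, also chosen by their values, were Antxr1, Plekhg1 and Rad51b (5 of each), Bcl11b (5 ectoderm-only and 7 P2-only), and Tenm4 (7 and 4). Bcl11b, a zinc-finger factor of ectoderm and enamel epithelium, thus held regions of both kinds.

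Among 919 microRNA hairpins on these chromosomes, 11 (1.20%) were overlapped, in whole or in part, by an ectoderm-only region. Mir96 and Mir183, which belong to a cluster known from sensory organs, shared 1 region, chr6:30169026-30169713, with a −log10 p of 5.79 in ectoderm library 1 and 4.37 in library 2, signals of 902 and 388, and no peak in any full P2 list. The region ends at 30169713, so it covered miR-96-5p but only the last bases of miR-183-5p, whose seed lay outside it. They are shown because both hairpins overlap that region, with the seed (bases 2 to 8) in capitals.
miR-96-5p (chr6:30169506-30169528, - strand): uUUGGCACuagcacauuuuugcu
miR-183-5p (chr6:30169711-30169732, - strand): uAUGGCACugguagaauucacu
The 2 seeds share their last 6 letters of 7 and are not the same. The hairpin of Mir182, the third of the cluster, did not lie under such a region. Openness over a hairpin does not measure the microRNA.

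Ectoderm-only regions overlapped 704 of 31396 RefSeq promoter windows (2.24%), each from 250 bases before to 50 after a start site, of 638 genes. These windows had a median GC content of 56.3% and 10 CpG, against 53% and 5 for the 203 windows under P2-only regions, 62.7% and 23.0 for the 11485 under regions in all 7 libraries, and 53% and 7 for all windows. Beside the motifs given above, both strands were searched for AACAAT of the SOX factors, for TGTGGT of the RUNX factors, for GGAATG of the TEAD partners of YAP, for TGACAG of the MEIS class, for TGATNNAT of paired PBX and HOX proteins, for GTAAACA of the forkhead class, for CCGGAAG of the ETS factors, for AGATAA of the GATA factors, for CAGCTG of bHLH proteins that bind the E-box, for TAATTA of many homeobox proteins, and for the NFI, DR1 and CTCF motifs, 20 in all. Matches of different motifs could overlap. RUNX letters were in 11.6% of the ectoderm-only windows, 24.6% of the P2-only windows and 16.7% of all windows, and the first 2 differed by −13.0 points (−19.7 to −6.98). AP-1 letters were in 6.39%, 14.3% and 7.84%, a difference of −7.89 points (−13.6 to −3.26). Both differences kept their sign and an interval that left out 0 under each alternative run. The promoter intervals count windows, and the 704 and 203 windows lay under 602 and 175 regions. Windows under the same region were counted as separate, which these intervals do not allow for. Windows under regions in all 7 libraries held RUNX letters in 11.2% and AP-1 letters in 3.80%. AP-2 letters were in 20.6%, 10.8% and 16.7% (difference 9.76 points, 3.99 to 14.5) and KLF/SP letters in 44.2%, 28.6% and 36.0% (15.6 points, 8.10 to 22.5). Windows under regions in all 7 libraries held more of both than the ectoderm-only windows, AP-2 letters in 27.1% and KLF/SP letters in 69.3%. Both motifs are rich in G and C, and the part of GC content in these differences was not tested. The 2 differences turned to −1.17 and −3.95 points when ectoderm library 2 was left out, and without library 1 the AP-2 difference was 4.89 points with an interval from −0.835 to 9.76. Forkhead letters were in 2.41% and 6.40% of the ectoderm-only and P2-only windows (difference −3.99 points, −8.33 to −1.01) and TAATTA in 2.84% and 6.40% (−3.56 points, −7.92 to −0.538), but each interval held 0 under 2 alternatives. GRHL letters, in 2.41% and 2.96%, and PITX letters, in 6.53% and 6.40%, had intervals that held 0.

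Per library the promoters under peaks were nearly alike in motifs. Over all promoter windows under the 38000 peaks, the ectoderm and P2 means differed by 1.34 points or less for each of the 20 motifs. An exact two-sided permutation test over the 7 libraries, with 21 arrangements, cannot go below p = 0.0952, and 15 motifs, whose groups did not overlap, reached that value. The smallest Benjamini-Hochberg adjusted p by this exact test was 0.127, so no motif passed. RUNX letters were in 11.4% of promoters on average in ectoderm and 11.7% in P2. For AP-2 letters these means were 26.5% and 26.8%, and for KLF/SP letters 66.4% and 67.8%, each lower in ectoderm. Motifs in the distal ectoderm-only regions were not analysed here, because that needs genome sequence.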

How the data were processed

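Per the labels' protocols, Omni-ATAC libraries were made from all 7 samples. Per the submitters' processing notes, FastQC, Trimmomatic, Bowtie2, deepTools and Genrich were used with the build mm10, and no versions, read filters or shift for the transposase are given in the sources used here. The authors deposited 1 peak list per library, of 39017 to 82461 peaks, so peaks were called per library. Of the deposited values, the signal of a peak is its area under the significance curve in Genrich's standard output, and the significance is the −log10 of its p-value, deposited as such. Nothing in the files normalizes either between libraries, so they served only to rank peaks within a list. The files hold no read counts, so depth is unknown. The 38000 peaks used were between 47.0% and 99.1% of a library's autosomal list.

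Groups came from the sample titles. Peaks on chromosomes 1 to 19 were ranked by −log10 p with ties by signal, and merged where they shared at least 1 bp. Genes were the 20665 protein-coding symbols of a RefSeq table and promoter windows those of a RefSeq sequence table, both of GRCm38.p6, the assembly of mm10. The members and gene lists were chosen with earlier results of these data known. Genes and regions were named by rule, namely the 15 members with the best worse rank, the 12 such members near gene ends, the 20 genes with most members, up to 6 genes per list, the 5 densest 500 kb windows, members at the limit, and promoters of ectoderm and epithelial list genes under a member. Others are said to be chosen by their values, and a few genes that the rule names are not reported here. A planned search of 200 bp around summits was replaced by promoter windows. Shares have Wilson and differences Newcombe 95% intervals. Alternatives changed list length, ranking, overlap, summit windows, replicates, gene-end window and assignment distance. The scripts ran in Python 3.11.15 with pandas 2.3.3 and were tested on simulated regions.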

Additional observations from a re-analysis of the deposited data

Results flagged for a closer look

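Chromosome X, which the choice of regions left out, held 169 regions open in both ectoderm libraries and in no P2 library. They were 14.1% of its 1198 merged regions, against 12.8% on chromosomes 1 to 19, and 33 regions on it were P2-only. Single autosomes ran from 10.9% to 14.6%, so the share on chromosome X lay within their range. A signal in data outside the comparisons brought this count here.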

How the results depend on the processing

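The number of ectoderm-only regions was 15087 with all deposited peaks and 4511 with 20000 peaks per library, and stayed within 1.5 times of the main count under the other alternatives run, including each replicate left out (10153 to 13863). Genes with such a region numbered 2862 with 20000 peaks and stayed within that limit otherwise (5208 to 6308 without a replicate). The share near a gene end was 6.27% with all peaks, 12.4% with 20000, 8.61% with 30000, 8.13% when ranked by signal, 9.35% when 50% of a region had to be covered, 8.99% with summit windows, 5.14% for regions absent from every full P2 list, and 4.99% and 12.8% with windows of 500 bp and 2.5 kb; without 1 replicate it ran from 6.48% to 8.82%. Its difference from P2-only regions kept its sign and an interval above 0 in 15 of 15 alternatives, from 1.31 points without ectoderm replicate 2 to 5.60 points. The share with a peak in a full P2 list was 60.6% with 20000 peaks, 42.1% with 30000, 40.3% with 50% coverage and 26.4% with summit windows, and 26.1% to 33.2% without 1 replicate. Fewer peaks per list leave more of each P2 list below the limit by construction. That share has no value with all peaks or for regions absent from every full list. With both Sox2-positive libraries set aside, an alternative chosen after seeing the data, 8.99% lay near a gene end and 36.2% had a full-list peak.

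In promoters, the AP-2 and KLF/SP differences turned to −1.17 and −3.95 points without ectoderm replicate 2 and were at most 10 and 16 points without another replicate. The AP-2 difference was 4.89 points without replicate 1, with an interval from −0.835 to 9.76. The cause was not tested. Counts of list genes moved by more than 1.5 times in 39 of 294 cases, and in 3 of 63 where list length was held. Alternatives for sequence windows around summits were not run, for lack of genome sequence. No paired analysis was possible because the results come from peak lists and counts of regions, with no fitted test across samples.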
